A study of Mus musculus with 2 samples.

Results

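The Hox genes encode homeodomain transcription factors and lie in 4 clusters, HoxA on chromosome 6, HoxB on chromosome 11, HoxC on chromosome 15 and HoxD on chromosome 2. The members described here were all 39 genes that GENCODE vM21 annotates on mm10 as protein-coding under a symbol of Hoxa, Hoxb, Hoxc or Hoxd plus a number, out of 21938 protein-coding genes. They comprise 11 genes of HoxA, 10 of HoxB, 9 of HoxC and 9 of HoxD, which span 492 kb from the first to the last base of each cluster. DNase-seq, which cuts accessible chromatin with DNase I and sequences the cut ends, was applied to thymus from 36-day-old male mice of the strain B6CASTF1/J, an F1 hybrid. There is 1 group of 2 libraries, replicate 1 and replicate 2, and no treated or control group. The labels number the males differently and call the libraries biological replicates, but they give both the same donor identifier. In the account that follows, replicate 1 and replicate 2 are the names on the labels. Reads of the hybrid genome were placed on the single reference mm10, and the alleles are not separated in the files.

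Along each cluster, genes stand in the order in which they are used from head to tail of the embryo, and genes at the same place in different clusters form a paralogue group with the same number. Low numbers mark the anterior genes and high numbers the posterior ones. Polycomb group proteins keep unused Hox genes silent, Trithorax group proteins keep used ones active, and the zinc finger protein CTCF binds between neighbouring Hox genes and can separate silent from active chromatin. In blood cell development Hoxa7, Hoxa9 and Hoxa10 are used in progenitors, and Hoxa3 is needed to form the thymus from the pharyngeal pouch.

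The libraries stood apart at marker genes. Every difference between them given here is to be read beside this, and whether any follows from it was not tested. A promoter, taken as the sequence within 1 kb of any annotated transcript start, was called when a peak of the shorter deposited peak list overlapped it by at least 1 bp. Of 14 thymocyte markers 3 had a promoter peak in the library labelled replicate 1 (Tcf7, Lck and Satb1, with Cd3d, Cd3e, Cd3g, Cd4, Cd8a, Cd8b1, Rag1 and Rag2 among those without), against 14 in replicate 2. Of 15 markers of pancreatic acinar cells, 15 had one in the library labelled replicate 1 and 5 in replicate 2. Thymic epithelium markers were called at 8 and 7 of 12, with Foxn1, Psmb11, Krt5 and Krt14 without a peak in either library. Islet markers were called at 6 and 2 of 10, liver markers at 5 and 0 of 8, fibroblast and mural cell markers at 4 and 5 of 12, endothelial markers at 2 and 4 of 10, myeloid markers at 3 and 4 of 10, and B cell markers at 3 and 4 of 8. Of all protein-coding genes 63.1% had a promoter peak in replicate 1 and 60.1% in replicate 2. The replicate 1 shares of thymic epithelium (66.7%), islet (60.0%) and liver markers (62.5%) were near that, as was thymic epithelium in replicate 2 (58.3%). At defining thymocyte genes, the library labelled replicate 1 goes against its tissue label. Fewer cells of a type and less open chromatin per cell cannot be told apart in such bulk tissue. The shorter lists hold 85367 and 60644 peaks, the files hold no read counts, and depth is unknown. With 1 group of 2 libraries no test over libraries was possible, so every result is given for each library. The sources used here do not state how signals were scaled, so they are ranked only within a library. Ratios of signal between the libraries are set against the median ratio of all shared regions.

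The sequences that recur in the clusters are shown first. Merging overlapping peaks of the libraries gave 28 regions within the clusters, numbered from the lower coordinate in each cluster, and 17 were shared by both libraries. Of these 17 shared regions 14 held a match to a CTCF weight matrix of 22 bp, against 43.2% of shared regions over the genome. At a stricter cut 4 of 17 did, against 31.7%. The matrix and both cuts are described with the results on CTCF. The matches are written 5′ to 3′ on the strand of the motif, and capitals mark bases equal to the most frequent base of the matrix at that place.
most frequent base of the matrix: TGGCCACCAGGGGGCGCCAGAG
HoxA region 5 (chr6:52221802-52221823, minus strand): attCCAggAGatGGCagtgtgG
HoxA region 6 (chr6:52240534-52240555, minus strand): ccGCCACgAGatGGCGCactcc
HoxA region 7 (chr6:52257118-52257139, plus strand): TcaaCACgAGGtGGCGCCcttG
HoxB region 1 (chr11:96198758-96198779, minus strand): ctaCCggaAGGGGGaGCgcttG
HoxB region 2 (chr11:96235099-96235120, minus strand): cGGCCggCAGGGGtCaCtgtgt
HoxB region 3 (chr11:96240415-96240436, minus strand): caGaCACtAGaGGGtGCtcGgc
HoxB region 4 (chr11:96261746-96261767, minus strand): cGaCCtCtAGGcGGCGCCctgG
HoxB region 5 (chr11:96278945-96278966, plus strand): TGGCCgCtAGatGGCatCcttG
HoxB region 6 (chr11:96294691-96294712, minus strand): cGGaCggtAGatGGCagCAaAc
HoxB region 7 (chr11:96303242-96303263, plus strand): TcGCCgggAGGtGGCGCgctct
HoxC region 2 (chr15:102987590-102987611, plus strand): TGaaCgCgAGGtGGCGCtgttG
HoxD region 1 (chr2:74673171-74673192, minus strand): cGcCCAggAGatGGCGagcGtG
HoxD region 3 (chr2:74702392-74702413, plus strand): TGGCCACtAGaGaGCGCtgttG
HoxD region 4 (chr2:74715918-74715939, plus strand): TGtCCAggAGGaGGCGCtgtAG
All 14 matches have the AG of the motif core, and each equals the most frequent base at 9 to 15 of 22 places. The first line gives the most frequent bases of the matrix, and the other lines are RefSeq genome sequence of GRCm38.p6, the mm10 assembly.

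Longer stretches are given for the region with the highest mean rank over both libraries, for the only shared HoxA region without a CTCF match, and for the strongest cluster peak of replicate 2, chosen after its value was seen. All are from the plus strand. HoxC region 2 lies at chr15:102987521-102987700, in an intron of Hoxc5 between the start codons of Hoxc9 and Hoxc8, and its capitals mark the CTCF match.
HoxC region 2: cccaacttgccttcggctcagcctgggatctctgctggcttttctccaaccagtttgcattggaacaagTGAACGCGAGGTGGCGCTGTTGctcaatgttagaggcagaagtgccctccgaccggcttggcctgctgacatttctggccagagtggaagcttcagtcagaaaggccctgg
HoxA region 3 lies at chr6:52211641-52211840, in an intron of Hoxa3 between the start codons of Hoxa6 and Hoxa7, and its capitals mark bases in footprints of both libraries. A footprint is a short stretch inside open chromatin that is cut less than its surroundings, as where a protein is bound.
HoxA region 3: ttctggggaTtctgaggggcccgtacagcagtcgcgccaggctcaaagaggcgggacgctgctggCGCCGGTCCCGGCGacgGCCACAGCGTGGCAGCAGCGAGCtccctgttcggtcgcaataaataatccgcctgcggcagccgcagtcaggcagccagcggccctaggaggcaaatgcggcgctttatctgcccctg
HoxA region 2 lies at chr6:52191881-52192060, just upstream of Hoxa4 and in an intron of a long Hoxa3 transcript, and its capitals mark bases in footprints of replicate 2.
HoxA region 2: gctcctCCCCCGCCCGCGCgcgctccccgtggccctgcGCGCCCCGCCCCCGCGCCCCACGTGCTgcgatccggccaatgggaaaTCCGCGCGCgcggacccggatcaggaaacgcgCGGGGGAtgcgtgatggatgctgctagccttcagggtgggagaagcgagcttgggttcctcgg
The Hoxa4 sequence was 73.9% G or C and held the GC box, searched as GGGCGG on both strands, at 2 places. HoxC region 2 held no GC box and was 56.7% G or C.

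Most Hox promoters had no DNase peak. A peak was called at 4 of 39 Hox promoters (10.3%) in replicate 1 and at 9 of 39 (23.1%) in replicate 2, and at 3 of 39 (7.69%) in both. Over all protein-coding genes the shares were 63.1% in replicate 1, 60.1% in replicate 2 and 56.7% in both. Hoxa7, Hoxa10 and Hoxb5 had a promoter peak in both libraries. Hoxc6 had one in replicate 1 only, and those called in replicate 2 only included Hoxa4, Hoxa13, Hoxb4, Hoxc5 and Hoxc10. Of the promoters 29 had no peak of the shorter list in either library. All 4 called promoters of replicate 1 and all 9 of replicate 2 lay below the median signal of genes with a promoter peak, which was 4.75 and 7.84.

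**Figure D1:**
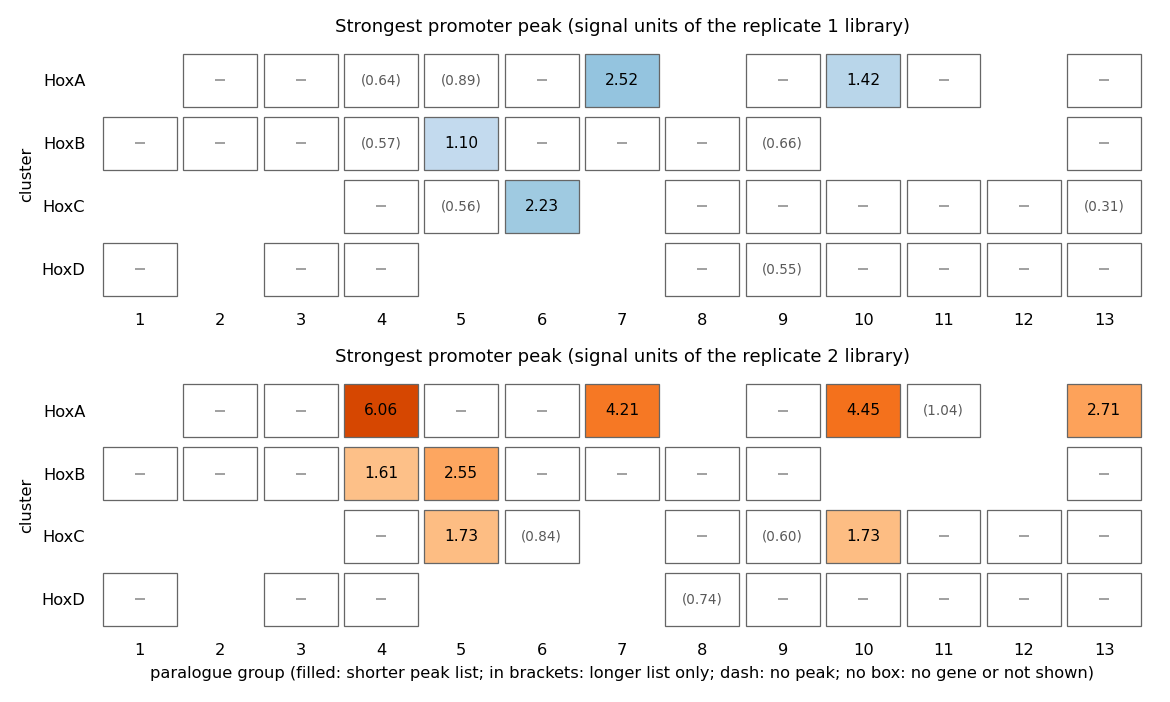
Signal of the strongest promoter peak of each Hox gene, by cluster (rows) and paralogue group (columns), in the library labelled replicate 1 (top) and in replicate 2 (bottom). Filled boxes are peaks of the shorter list, bracketed values are peaks of the longer list alone, a dash is no peak and a missing box is a gene the cluster lacks or one not shown. Filled boxes stand in the rows of HoxA, HoxB and HoxC, and no HoxD box is filled.

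Called promoters lay in HoxA, HoxB and HoxC. In HoxA 2 of 11 were called in replicate 1 and 5 of 11 in replicate 2, against 1 and 2 of 10 in HoxB, 1 and 2 of 9 in HoxC and 0 of 9 in HoxD in either library. By position, paralogue groups 4 to 8 had 3 and 5 called promoters of 15, and groups 9 to 13 had 1 and 3 of 16. The middle groups thus held 3 of the 4 calls of replicate 1 and 5 of the 9 calls of replicate 2.

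Hoxa7, a gene of the middle group used in blood progenitors, had the strongest Hox promoter peak of replicate 1. Its peak signal was 2.52 in replicate 1, at percentile 24.0 of genes with a promoter peak, and 4.21 in replicate 2, at percentile 28.9. The peak lay across the 5′ end of the gene (chr6:52214491-52221854, minus strand) at chr6:52221701-52221920. Another Hoxa7 peak, HoxA region 4 at an internal transcript start, had a signal of 2.42 in replicate 2 and no peak in replicate 1. Hoxa10, a posterior gene of the AbdB type, had a peak of 1.42 (percentile 13.8) in replicate 1 and of 4.45 (percentile 30.1) in replicate 2. That peak was in the exon of Hoxa10, with its midpoint 254 bp inside the gene from the nearest start. Hoxb5 had a peak of 1.10 (percentile 10.5) in replicate 1 and of 2.55 (percentile 19.3) in replicate 2, upstream of its start. In all 3 genes the promoter peak coincided with a CTCF match listed with the sequences. Over the genome 17.9% of shared regions within 1 kb of a transcript start held such a match.

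The calls made in replicate 2 alone included the strongest Hox promoter. Hoxa4 had a signal of 6.06 there, at percentile 39.7, and in the library labelled replicate 1 it had 0.643 in the longer peak list only. Hoxa13, the most posterior gene of HoxA, had 2.71 (percentile 20.3) in replicate 2 and no peak in replicate 1. Hoxb4, known for its effect on blood stem cells, had 1.61 (percentile 12.3) in replicate 2 and 0.572 in the longer list of replicate 1. Hoxc10 and Hoxc5 share 1 peak of 1.73 (percentile 13.3) in replicate 2, because a long Hoxc5 transcript starts next to Hoxc10. None of these 5 promoters held a CTCF match in its peak, and the share over all regions found in 1 library alone was not counted. In the opposite direction, Hoxc6 had 2.23 (percentile 21.4) in the library labelled replicate 1. The peak of replicate 2 there, of 0.840, began at chr15:102999275, beyond the end of the window, but in the longer list of replicate 2 the promoter had a peak of 0.840. Whether the markers that differ between the libraries bear on these calls was not tested.

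In the longer peak lists, 11 Hox promoters of replicate 1 and 13 of replicate 2 had a peak. Those found only there were Hoxa5 (signal 0.886), Hoxb9 (0.659), Hoxd9 (0.549) and Hoxc13 (0.306) in replicate 1, and Hoxa11 (1.04), Hoxd8 (0.740) and Hoxc9 (0.601) in replicate 2. Both lists together left 22 of 39 promoters with no peak in either library. These were Hoxa2, Hoxa3, Hoxa6 and Hoxa9 in HoxA, Hoxb1, Hoxb2, Hoxb3, Hoxb6, Hoxb7, Hoxb8 and Hoxb13 in HoxB, Hoxc4, Hoxc8, Hoxc11 and Hoxc12 in HoxC, and Hoxd1, Hoxd3, Hoxd4, Hoxd10, Hoxd11, Hoxd12 and Hoxd13 in HoxD. Hoxa3 and Hoxa9, named above for the thymus and for blood progenitors, are among them. An absent peak means that none was called at the unknown depth of that library.

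Hox genes with a CpG island at the 5′ end mostly lacked a promoter peak. A CpG island was scored where the 500 bp on either side of the 5′ end had at least 55% G or C and an observed to expected CpG ratio of at least 0.65. This rule was set after the peak calls were seen. By it 17 of 39 Hox genes had an island, against 34.7% of all genes. Of these 17 genes none had a promoter peak in replicate 1, and 3 (17.6%) had one in replicate 2, among them Hoxa4 and Hoxa13. None had a peak in both libraries. Among all 7609 genes with such an island the shares were 94.4% in replicate 1, 91.9% in replicate 2 and 90.5% in both. Hoxd1 and Hoxd13, with 68.4% and 72.4% G or C, had no peak in any list. The 22 Hox genes without an island had 4 calls in replicate 1 and 6 in replicate 2.

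The table of false discovery rates, which lists only intervals with an FDR below 0.05, also covers sequence that was not called a peak. Of 39 Hox promoters 27 in replicate 1 and 26 in replicate 2 held no such base, against 31.6% and 34.3% of all genes. The median Hox promoter therefore held 0 bases, while the median over all genes was 1009 and 759 bp. Hoxa7 held 756 bp in replicate 1 and 1006 bp in replicate 2, in a window of 6403 bp over several transcript starts. Hoxa4 held 59 bp in replicate 1 and 1134 bp in replicate 2, with a lowest FDR of 0.0221 and 1.69e-34. Hoxa13 held 0 and 841 bp, and Hoxc6 held 917 and 46 bp. Hoxa4, Hoxa13 and Hoxc6, each called in 1 library alone, thus held most of their bases in that library. As a share of the window, Hoxa7 held 11.8% in replicate 1 and 15.7% in replicate 2. The medians over all genes were 17.8% and 13.5%, and Hoxa4 held 2.95% and 56.7%.

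Footprints were as sparse. No footprint lay in 30 Hox promoters of replicate 1 and in 29 of replicate 2, against 35.5% and 37.3% of all genes. Hoxa7 had 6 and 15 footprints, the most in each library, but in a window of 6403 bp. The windows of Hoxa4 and Hoxb4 have 2001 bp. Hoxa4 had 2 and 9, Hoxa13 0 and 8, and Hoxb4 1 and 6. Hoxa10 and Hoxb5 had 3 each in both libraries. Hoxa5 had 3 and Hoxd9 2 in replicate 1 alone, and Hoxd8 had 2 in replicate 2 alone. Footprints thus also lay in 3 promoters without a peak of the shorter list, those of Hoxa5, Hoxd8 and Hoxd9.

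Within the clusters, most peaks of replicate 1 had a partner in replicate 2. The clusters held 19 peaks of replicate 1 and 26 of replicate 2. A partner in the other library was found for 17 of the 19 (89.5%) and 17 of the 26 (65.4%), against 43.1% of all peaks of replicate 1 and 60.6% of all peaks of replicate 2. The share of replicate 2 is near that of all its peaks, while that of replicate 1 is above. Of the 28 regions 17 were shared (60.7%, against 33.3% of all regions), 4 of 9 in HoxA, 8 of 10 in HoxB, 2 of 4 in HoxC and 3 of 5 in HoxD. Only 2 regions belonged to replicate 1 alone and 9 to replicate 2 alone. Of the 12 regions at member promoters 4 were shared, and of the 16 outside them 13 were shared. The shared part of all promoter regions of the genome, and of all other regions, was not counted.

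**Figure D2:**
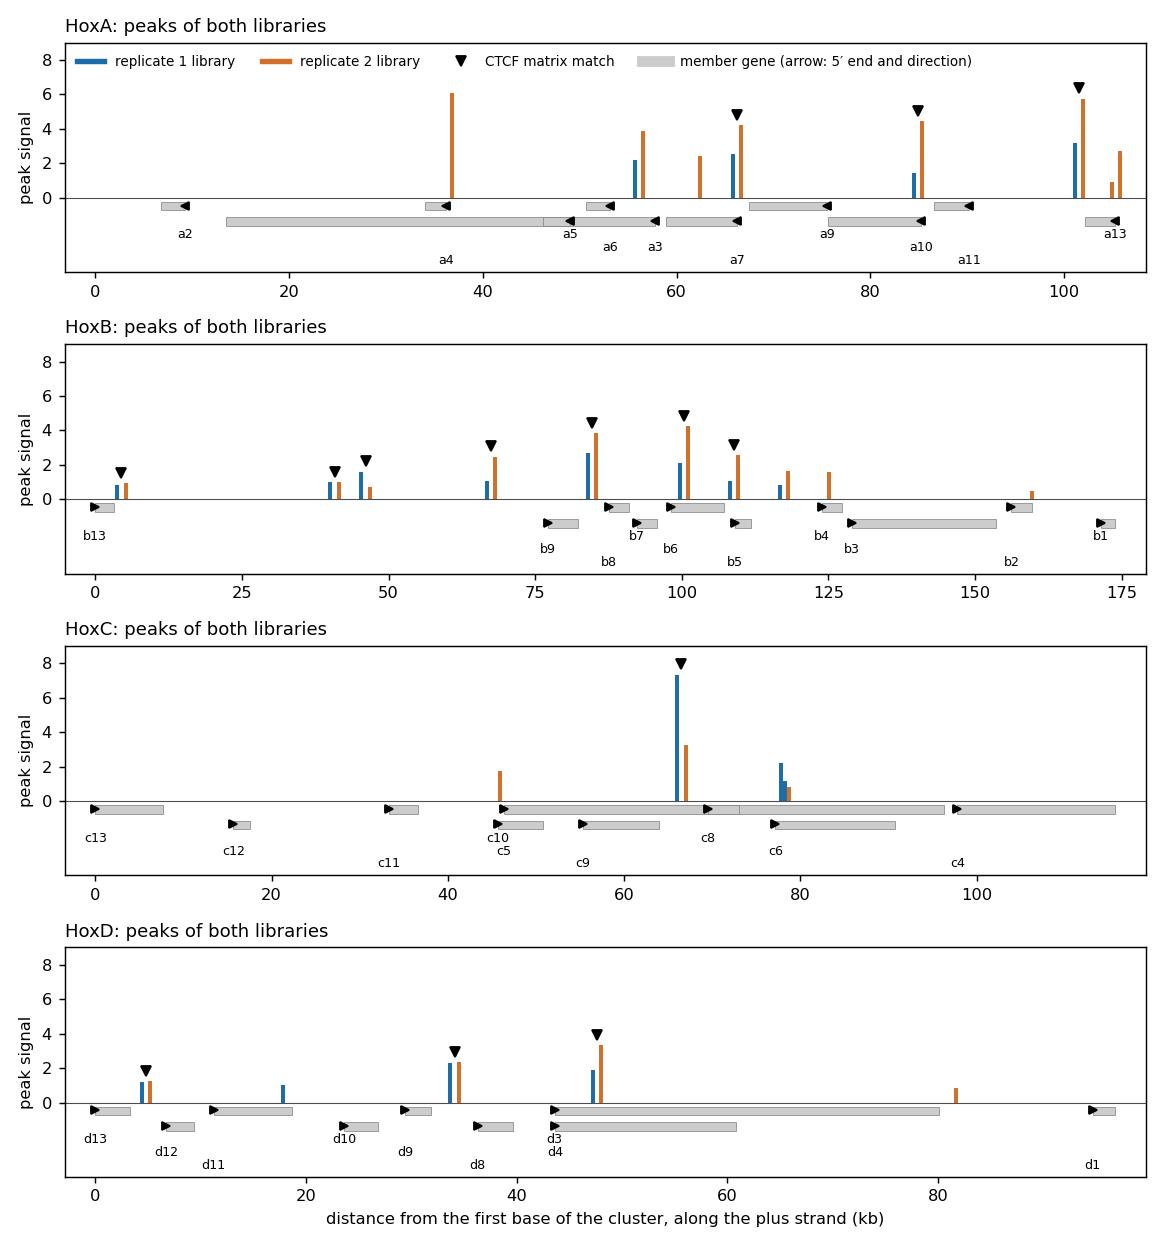
Peaks along each Hox cluster, as kb from the first base of the cluster (horizontal) and peak signal in the units of each library (vertical). Bars are peaks of the library labelled replicate 1 and of replicate 2, triangles mark regions with a CTCF matrix match, and grey boxes are member genes (1 gene and its peak are not shown) with an arrow at the 5′ end. HoxB region 1 to region 7 all carry a triangle, and the anterior ends of HoxB and HoxD hold few peaks.

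In HoxA the shared regions lay between Hoxa6 and the posterior end. HoxA region 7 was the strongest of them in both libraries, with a signal of 3.21 (percentile 81.2 of all peaks) in replicate 1 and 5.75 (percentile 82.7) in replicate 2. It lies at chr6:52257061-52257220 in an exon of the noncoding gene 9530018H14Rik, between Hoxa11 and Hoxa13. HoxA region 3 had 2.18 in replicate 1 and 3.85 in replicate 2, while region 5 and region 6 are the Hoxa7 and Hoxa10 promoter peaks. The side from Hoxa6 to Hoxa13 thus carried all 4 shared regions, and the 56.1 kb below them (chr6:52155590-52211640), up to and including Hoxa6, had no peak in replicate 1.

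HoxB held a row of shared regions from Hoxb13 to Hoxb5. HoxB region 5, between Hoxb9 and Hoxb8, had a signal of 2.70 in replicate 1 and 3.85 in replicate 2. HoxB region 6, in an intron of Hoxb6, had 2.14 and 4.24. These are the strongest pair in HoxB, on either side of Hoxb8 and Hoxb7. HoxB region 4, in an exon of the noncoding gene Gm53, had 1.07 and 2.48, and region 7 is the Hoxb5 promoter peak. HoxB region 8, between Hoxb5 and Hoxb4, had 0.815 and 1.66 and no CTCF match. In the long interval between Hoxb13 and Hoxb9, region 1 had 0.831 and 0.948, region 2 had 0.988 and 1.01, and region 3 had 1.61 and 0.717. No peak of replicate 1 lay in the 56.4 kb from region 8 to the end of Hoxb1, where Hoxb4, Hoxb3, Hoxb2 and Hoxb1 stand.

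HoxC and HoxD held 9 regions, among them the strongest cluster peak of replicate 1. HoxC region 2 had a signal of 7.32 in replicate 1, at percentile 96.4 of all peaks, and of 3.24 in replicate 2, at percentile 70.6. Several regions of the other clusters were stronger in replicate 2, among them HoxA region 2 with 6.06, HoxA region 7 with 5.75 and HoxB region 6 with 4.24. HoxC region 3, at Hoxc6, had 2.23 in replicate 1 and 0.840 in replicate 2. Both HoxC regions had ratios of replicate 2 to replicate 1, 0.443 and 0.377, below the median of 1.34 over all 35217 shared regions. HoxB region 3 was also low, at 0.445. The ratio lay above that median in 4 of 4 shared regions of HoxA, 5 of 8 of HoxB, 0 of 2 of HoxC and 1 of 3 of HoxD. In HoxD, region 1 between Hoxd13 and Hoxd12 had 1.19 and 1.23, region 3 between Hoxd9 and Hoxd8 had 2.31 and 2.36, and region 4 in an exon of Hoxd3os1 had 1.91 and 3.35. None of the HoxD regions touched a member promoter. By percentile of signal, HoxD region 3 stood at 72.0 in replicate 1 and 61.4 in replicate 2, and HoxC region 3 at 70.9 and 21.0.

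**Figure D3:**
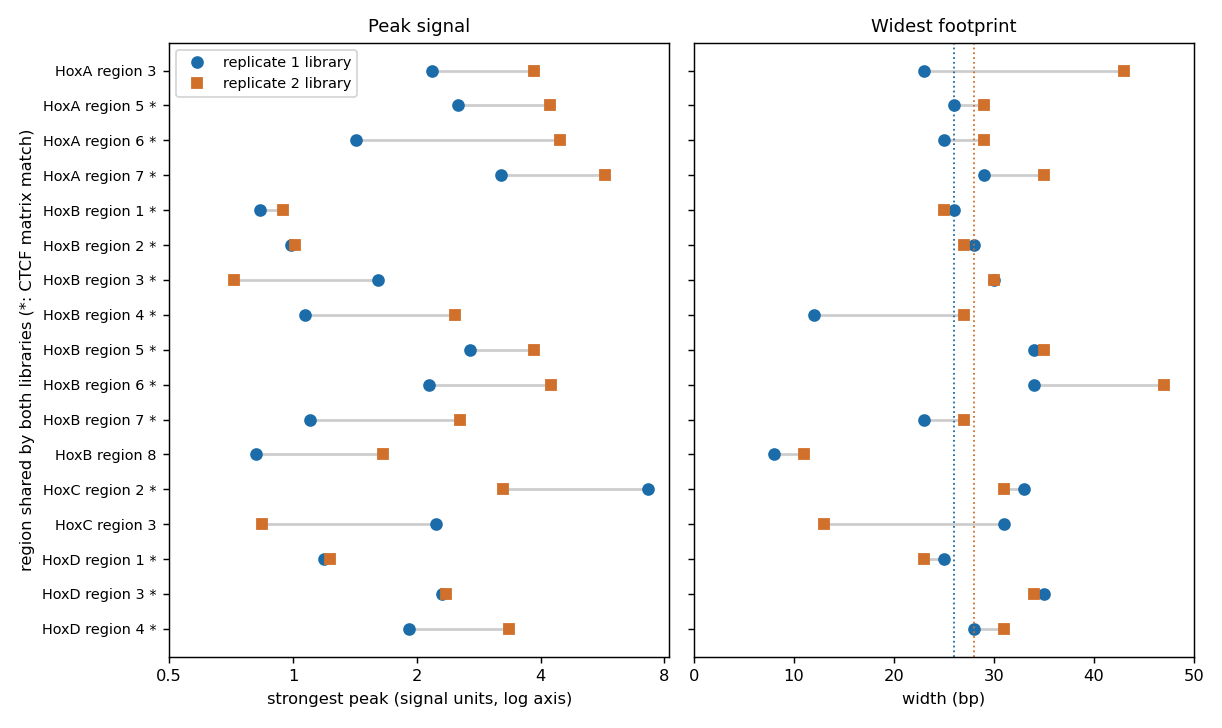
The 17 regions shared by both libraries (rows, a star marks a CTCF matrix match). Left, signal of the strongest peak on a log axis, in the units of each library, which are not known to match. Right, the widest footprint in bp, with dotted lines at the medians of all shared regions, 26 bp in replicate 1 and 28 bp in replicate 2. HoxC region 2 and region 3 and HoxB region 3 are the ones with a lower signal in replicate 2, and the starred regions have footprints of 12 bp or more.

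CTCF matches were frequent in the shared regions, though most were moderate. The 13 bp CTCF consensus, with at most 1 mismatch on either strand, was in 5 of 17 shared regions (29.4%), against 34.5% of all shared regions of the genome. Since many of the printed sequences resembled CTCF sites with more mismatches, a weight matrix was added after they were read. It was learned from 7232 consensus sites that lie wholly in footprints of both libraries on chromosomes without a Hox cluster. With the cut at a score of 11.1 (log2 odds), which 5% of all protein-coding promoters reach within a shorter stretch around the 5′ end, 14 of 17 shared Hox regions matched (82.4%). Over the genome 43.2% of shared regions matched. Within 1 kb of a transcript start 7 of 8 shared Hox regions matched, against 17.9% of all such regions, and farther away 7 of 9 matched, against 71.4%. None of the 11 regions found in 1 library alone matched, and the share over all such regions of the genome was not counted. At a stricter cut of 15.5, which 2% of those stretches reach, 4 of 17 (23.5%) matched, against 31.7% of all shared regions. The median score of the matches was 14.4 in the Hox regions and 18.1 over the genome. The count thus rests on sites of middling score, and whether CTCF binds there was not measured.

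Footprints covered these matches. All 14 lay in footprints of both libraries at least in part, and 13 lay wholly inside footprints in replicate 1. The matrix was learned from sites wholly in footprints, so this cover is not independent of how the matrix was made. All 17 shared regions had footprints in both libraries, 45 in replicate 1 and 55 in replicate 2. A footprint of at least 20 bp in both libraries, a width chosen after the values were seen, was in 14 of 17 (82.4%), against 62.1% of all shared regions. The exceptions were HoxB region 4 (12 and 27 bp), HoxB region 8 (8 and 11 bp) and HoxC region 3 (31 and 13 bp), and HoxB region 8 and HoxC region 3 are also without a match. Thus 13 of the 14 regions with a match had such a footprint in both libraries. Neither this share nor the cover of the matches was counted for all matching regions of the genome. The median widest footprint of the 17 regions, 28 and 29 bp, was near that of all shared regions, 26 and 28 bp. HoxA region 3, with no match, had footprints of 23 and 43 bp. The matches faced both ways, 6 on the plus strand and 8 on the minus strand. In HoxA, whose genes lie on the minus strand, the matches of region 5 and region 6 ran with the genes and that of region 7 against them. In HoxB, whose genes lie on the plus strand, 5 of 7 matches ran against the genes.

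Most of the regions found in 1 library alone belonged to replicate 2. Of the 9 in replicate 2 alone, 5 were in HoxA and all of those lay at member promoters, among them those of Hoxa4, Hoxa7 and Hoxa13. The Hoxa13 promoter had an additional one, HoxA region 8, of 0.948. In HoxB there were the Hoxb4 promoter and HoxB region 10, a stretch of 26 bp in exons of Hoxb2 and Hoxb3os with a signal of 0.509. HoxC region 1 is the Hoxc10 promoter, and HoxD region 5, in an exon of Haglr, had 0.871. The library labelled replicate 1 alone had HoxC region 4 at Hoxc6, with 1.15, and HoxD region 2 in an exon of Hoxd11, with 1.01. Of these 11 regions 5 (45.5%) held the GC box GGGCGG, against 5 of the 17 shared ones (29.4%). Over the genome, 40.2% of shared regions held it, and the share of regions found in 1 library alone was not counted.

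Over their whole length the pooled clusters held fewer peaks per 100 kb than the median gene-containing window in replicate 1 and more in replicate 2, where HoxC alone held fewer. Replicate 1 had 3.86 peaks per 100 kb in the clusters and 3.13 over the genome, and replicate 2 had 5.29 and 2.23. In 10861 windows of 100 kb that hold the start of a protein-coding gene, the median was 5 peaks in replicate 1 and 3 in replicate 2. HoxA was the cluster that differed most, with 3.80 per 100 kb in replicate 1 and 8.55 in replicate 2. Of the gene-containing windows 40.1% had as few as HoxA in replicate 1 and 84.7% in replicate 2. HoxC had 2.59 in both libraries. Bases with an FDR below 0.05 made up 1.82% of the clusters in replicate 1 and 2.32% in replicate 2, against 1.87% and 1.26% of the genome. Footprints numbered 63 and 117, of which 63.5% and 30.8% overlapped a footprint of the other library, against 35.1% and 39.4% of all footprints.

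The 100 kb on either side held from 0 to 10 peaks. The 100 kb beyond Hoxc13 held no peak in either library, and the 100 kb on the lower-coordinate side of HoxA held 0 in replicate 1 and 1 in replicate 2. Beyond Hoxc4 there were 7 peaks in replicate 1 and 0 in replicate 2, and beyond Hoxb13 there were 10 and 3. Beyond Hoxb1, toward the T cell adaptor gene Skap1, there were 3 and 7. The flank of Hoxb1 thus held more peaks in replicate 2, and those of Hoxc4 and Hoxb13 more in the library labelled replicate 1. Beyond Hoxd13 the peaks numbered 2 and 1, beyond Hoxd1 3 and 2, and beyond Hoxa13 1 and 3.

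Promoter peaks were frequent among genes that act with or on the Hox genes. Of 9 cofactors of the TALE homeodomain class, which bind DNA together with Hox proteins, 9 had a promoter peak in replicate 1 and 8 in replicate 2, against 63.1% and 60.1% of all protein-coding genes. Pknox1 had the strongest promoter of them in replicate 2, with 7.24 in replicate 1 and 22.2 in replicate 2, and Pbx3 had 9.17 and 16.1. Meis1, a partner of Hoxa9 in blood progenitors, was at percentile 60.3 in replicate 1 and had only 0.709 (percentile 4.04) in replicate 2. Meis2 had 3.69 and no peak, and Meis3 had 1.48 and 2.62. Pbx2 had 2.31 and 10.9, Pbx4 0.823 and 12.2, and Pknox2 1.43 and 3.30. Thus Pbx2, Pbx4 and Pknox1 ranked higher in replicate 2, and Meis1 ranked higher in the library labelled replicate 1.

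Of 16 Polycomb genes 16 had a promoter peak in replicate 1 and 15 in replicate 2, where Pcgf2 had none. A CpG island was scored at 12 of them, of which 12 and 11 were called, near the 94.4% and 91.9% of all genes with an island. Ezh2, the histone H3K27 methyltransferase, had 7.40 and 13.5, its relative Ezh1 8.96 and 12.2, Jarid2 10.8 and 14.8, and Cbx8 8.66 and 18.4. Of 11 Trithorax genes 10 and 11 were called, against 63.1% and 60.1% of all protein-coding genes. Of the 6 with an island, 6 were called in each library. Among the 11 were Kmt2a, the methyltransferase known as MLL1, at 9.61 and 20.5 and its partner Wdr5 at 7.98 and 20.1. The regulators of retinoic acid and FGF signalling had 9 and 7 of 10, and the share in replicate 2 (70.0%) was near that of all genes. Of the 5 with an island, 4 were called in each library. The receptor gene Rxrb was highest at 10.3 and 21.2, and Cyp26a1, which degrades retinoic acid, had no peak. Genes next to the clusters had 16 and 17 of 18, with the highest mean percentiles for Hibadh (13.5 and 26.2) and Skap2 (11.1 and 20.4), both beside HoxA. Skap1, beside HoxB, had no peak in replicate 1 and 4.06 in replicate 2, and Calcoco2 had none. Evx1 and Evx2, the homeobox genes at the posterior ends of HoxA and HoxD, had none in either library.

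Homeobox genes outside the clusters lay between the Hox genes and the rest. Of 46 listed, 14 (30.4%) had a promoter peak in replicate 1 and 15 (32.6%) in replicate 2, with 9 in both. Among the 27 of them with a CpG island, 7 and 10 had a promoter peak. Lhx1 had 4.41 and 0.948, Barx2 2.34 and 1.42, and Six4 2.17 and 0.555. Of 6 ParaHox and Cdx genes, Pdx1 (4.01) and Gsx1 (2.03) had a peak in the library labelled replicate 1, and none had one in replicate 2. Pdx1 is also in the list of islet markers given above, of which 6 and 2 of 10 were called. Whether the markers that differ between the libraries bear on the homeobox calls was not tested.

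**Figure D4:**
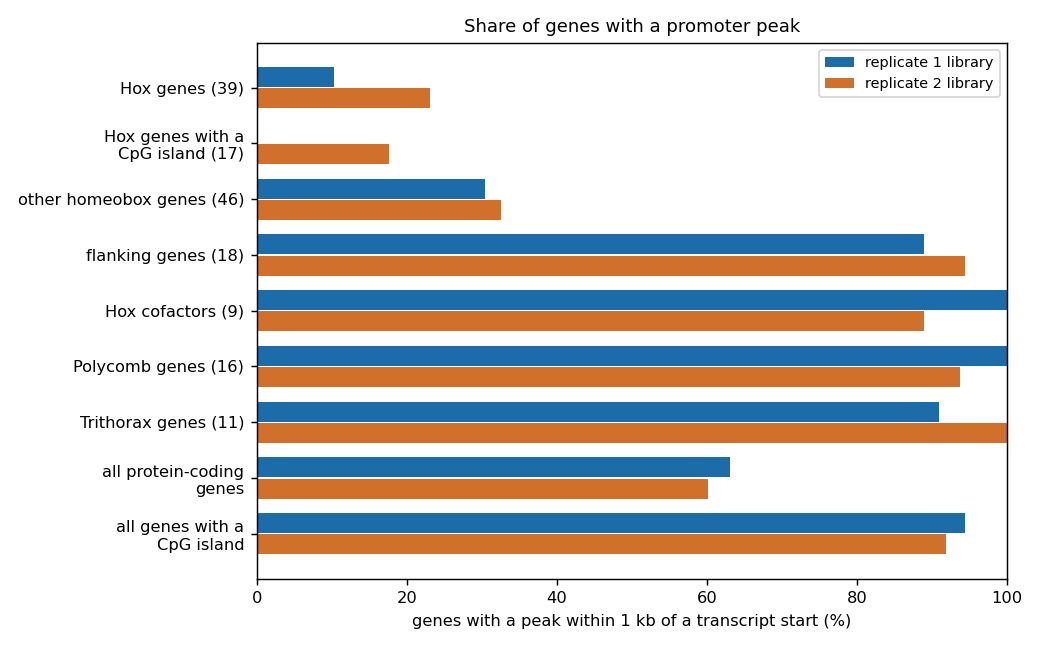
Percentage of genes with a promoter peak (horizontal) in the library labelled replicate 1 and in replicate 2, for the Hox genes, related gene lists with their sizes in brackets, and all protein-coding genes, with CpG-island genes apart. The Hox bars end at 10.3% and 23.1%, the bars of other homeobox genes at 30.4% and 32.6%, and those of all genes at 63.1% and 60.1%.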

How the data were processed

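DNase-seq of 2 libraries was analysed. Per the labels the assembly is mm10, and per the deposited notes peaks and FDR tables derive from the filtered alignment of each library, and footprints from that alignment and the FDR table. Aligner, callers, thresholds and signal scaling are not stated in the labels or notes. The authors' deposited peak lists give a signal per peak. The deposited footprint lists give a score, 0.01 throughout, which was not used. The deposited FDR tables give a p-value-like FDR per interval, listed below 0.05 only. The shorter of the 2 peak lists per library was the main one.

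Peaks, footprints and FDR bases were counted over promoters, clusters and 100 kb flanks with Python 3.11.15, numpy 2.4.6 and pandas 2.3.3, checked on simulated data. Genes were GENCODE vM21 protein-coding genes outside the mitochondrial genome, and sequences came from RefSeq GRCm38.p6. All peaks lay within its chromosome ends. Overlap of 1 bp sufficed. No test was run.

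The members and gene lists were chosen with earlier results of these data known. Some genes are not reported here by name, though they are in the counts. Other members with a promoter peak of the shorter list were given with values, and so were the 3 strongest regions of each library and all shared regions of each cluster (the rule asked for 6 of the 8 in HoxB). In related lists the rule named every gene where there were at most 9, and otherwise up to 4 with the highest mean percentile. Other genes named were chosen after their values were seen. Prac1 was not found in the annotation under that name.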

Additional observations from a re-analysis of the deposited data

How the results depend on the processing

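Depth is unknown and limits every statement that a promoter lacks a peak. Of 51 alternatives over 15 counts, 33 stayed within 1.5 times the main value. Some of these could not move: the median Hox promoter held 0 bases under the FDR threshold, so stricter FDR cuts had to give 0. With windows of 2500 bp, promoters with a peak numbered 8, 15 and 8 (replicate 1, replicate 2, both) in place of 4, 9 and 3, and with start codons 2 in replicate 1. With the longer lists there were 11 in replicate 1 and 7 in both, and 31 cluster peaks in replicate 1. With 1 library left out, the count in both libraries is by construction that of the remaining library, 4 in replicate 1 and 9 in replicate 2. The stronger 50% of peaks left 11 and 16 cluster peaks. Promoter footprints numbered 12 in replicate 1 when inside a peak, and 9 and 29 when at least 10 bp wide, in place of 23 and 54. Cluster footprints of that width numbered 35 and 60. At an FDR of at most 0.001 the clusters held 5019 and 6727 bp, in place of 8959 and 11392. The CTCF matrix gave 14 shared regions in place of 5, and was added after the data were seen. No paired analysis was possible because there is 1 group.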

Other observations

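Promoter peaks were also counted at noncoding RNA genes of the clusters. Of 16 listed, 1 had one in the library labelled replicate 1 and 3 in replicate 2. The share over all noncoding RNA genes was not counted. Hoxd3os1 had 1.91 and 3.35 in the respective libraries, and Haglr had 0.871 in replicate 2 only. The microRNA genes Mir10a, Mir10b, Mir196a-1, Mir196a-2, Mir196b and Mir615 had none in either library.

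Matches to homeodomain motifs were counted in the 28 cluster regions. No region held the PBX-HOX site TGATTNAT or the core TAATTA on either strand, which 1.25% and 2.02% of all shared regions held, so that few would be found in 28 regions at those shares. The MEIS site TGACAG was in HoxA region 7 and in HoxB region 9 at Hoxb4. Of the 17 shared regions 1 (5.88%) held it, against 16.4% of all shared regions. The posterior HOX site TTTATNG was in HoxA region 3 and HoxC region 4, that is in 1 of the 17 shared regions (5.88%) against 5.53% of all shared regions. The RUNX site TGTGGT was in HoxB region 2, HoxB region 4 and HoxD region 3, that is in 17.6% of the 17 shared regions against 15.0% of all shared regions.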
